A study of Mus musculus with 12 samples.

Results

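Potassium channel genes are described here in the adult male mouse pituitary, 83 of the 18497 genes named in the deposited table. They were chosen by name and level. A gene belonged if its symbol was Kcn, then lower-case letters and a number, and if 6 or more of the 12 libraries gave it a normalised count of 10 or more. The pattern found 83 genes and all 83 passed the level filter. The 3 closest to the threshold, by their sixth highest library, were Kcne2 with 15.1, Kcna7 with 15.6 and Kcne5 with 15.7 normalised counts. They comprise 38 voltage-gated subunits, 14 inward rectifiers, 9 two-pore subunits, 8 subunits of the calcium- and sodium-activated families (called ion-activated here) and 14 auxiliary subunits.

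The study injected mouse zygotes and later sequenced rRNA-depleted total RNA of whole pituitaries. The mimic group holds 6 glands from zygotes given a let-7f-5p LNA mimic at a concentration the submitters call stress-relevant. The vehicle group holds 6 glands from zygotes given the nuclease-free water in which the mimic was dissolved. All 12 animals were WT males of the strain label F1 C57BL/6Jx129S1/SvlmJ, grown to adulthood after culture of the embryos in KSOM and transfer into CD1 foster dams. No label gives a litter, so the p-values measure the spread between these glands, which may share litters. The injected RNA was given at the zygote stage, and the adult glands were measured without any label on whether the mimic was still there.

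Read totals recovered for 10 of the libraries ran from 26378308 to 37061136. Hormone genes of the anterior lobe were present in every gland. Markers of the other lobes varied widely. The mean log2 level of 9 posterior lobe markers was 8.61 to 9.12 in mimic glands and 7.00 to 9.67 in vehicle glands. That of 5 melanotroph markers was 12.4 to 14.0 in mimic glands and 10.8 to 13.7 in vehicle glands. Melanotrophs lie in the intermediate lobe, but Pomc and Tbx19 of that list also mark corticotrophs of the anterior lobe. The melanotroph list thus does not mark the intermediate lobe alone. Vehicle glands 1, 6 and 4 were lowest for both lists. All 5 melanotroph markers and 8 of the 9 posterior lobe markers had a higher mean log2 level in mimic glands, against 49.8% of all genes. At an unadjusted p under 0.05 (limma) 4 melanotroph markers and 1 posterior lobe marker were higher, against 2.29% of all genes. None passed the adjusted test. The markers of a list were read in the same glands, so these counts are not separate findings. In whole glands, fewer cells of a type and less RNA per cell cannot be told apart.

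Potassium channels let potassium leave the cell, which sets the resting potential and ends each action potential. Endocrine cells of the pituitary fire action potentials of their own, and the calcium that enters with them drives hormone release, so potassium channels shape how much hormone is secreted. Pore-forming subunits assemble as tetramers (dimers in the two-pore family), and auxiliary subunits alter their traffic and gating.

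The sequence of the injected microRNA is shown first, because a match to its seed is the usual starting point for naming a direct target. RefSeq (GRCm38.p6) lists the same 22-base mature let-7f-5p for Mirlet7f-1 at chr13:48537889-48537910 on the minus strand and for Mirlet7f-2 at chrX:151912353-151912374 on the plus strand. Capitals mark the seed, bases 2 to 8.
let-7f-5p: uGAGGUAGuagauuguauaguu
The DNA letters complementary to that seed, CTACCTC, were sought on the sense strand of the 3′ UTR of 1 GENCODE M21 transcript per gene (GRCm38). They were found in 6 of the 81 channel genes with such a UTR, or 7.41%, and in 1444 of 15323 genes tested, or 9.42%. The longer match CTACCTCA, which contains CTACCTC, was found in 0 channel genes and in 499 of the 15323. The median 3′ UTR was 1615 bases for the channel genes and 1035 bases for all genes. Of the 6 matches, 4 are printed with their flanks, the match in capitals.
Kcnc4: ccccaccccagattggggttCTACCTCcca
Kcnj3: tcatccactatatcttctggCTACCTCtgt
Kcnk3: tattgggcctgctatgccttCTACCTCctc
Kcnk6: gaaagggtatttgtacagcaCTACCTCgtg
They lie at chr3:107438792-107438821 (Kcnc4, minus strand), chr2:55597095-55597124 (Kcnj3, plus), chr5:30624436-30624465 (Kcnk3, plus) and chr7:29222130-29222159 (Kcnk6, minus), all in GRCm38. A match is a description of letters, not a site shown to be bound.

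Levels of different genes were compared as normalised count per kb of the longest transcript. The 83 genes together summed to 11273 ± 377 per kb in mimic glands and 11410 ± 416 per kb in vehicle glands (SD, n = 6 each). The 10 most abundant genes made up 51.1% of that sum over all 12 glands. Of the 83, 17 had a mean normalised count of at least 1000 and 17 had one under 50.

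Most voltage-gated subunits form pores that open on depolarisation, while some, such as Kcng1 and Kcnf1, are silent subunits. The class made up 38.7% ± 0.932 of the summed level in mimic glands and 39.4% ± 0.585 in vehicle glands (SD, n = 6 each). The subunit of highest level was Kcnh2, the ERG channel that carries a slowly deactivating current, at 626 ± 62.5 per kb in mimic glands and 648 ± 62 per kb in vehicle glands. Kcnh8, an ELK-type relative, stood at 604 ± 42.2 and Kcna5, a delayed rectifier of the Shaker group, at 522 ± 94.1 per kb in mimic glands, against 631 ± 73.5 and 606 ± 59.8 per kb in vehicle glands. Neighbours in this order of 3 lay within their spread. The other ERG genes were lower per kb, with Kcnh7 at 62.4 ± 9.28 and Kcnh6 at 55.5 ± 7.42 in mimic glands, against 58.2 ± 5.83 and 58.1 ± 11.9 in vehicle glands. Kcnd2, which carries transient A-type current, had 356 ± 20.4 per kb in mimic glands and 360 ± 49.2 per kb in vehicle glands. By median transcript length Kcnh2 was still highest of the class, at 726 per kb over all glands. Kcnd3, another A-type pore, had 667 and Kcnq1 had 635 by that length. Both were then above Kcnh8 with 618, Kcna5 with 564 and Kcnd2 with 358.

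Two-pore subunits carry leak current that holds the resting potential, and made up 17.2% ± 1.02 of the summed level in mimic glands and 16.9% ± 0.796 in vehicle glands (SD, n = 6 each). Kcnk2, the TREK-1 channel opened by stretch and lipids, led them at 667 ± 99.4 per kb in mimic glands and 665 ± 114 per kb in vehicle glands. Kcnk1, a weak inward-rectifying leak subunit, followed at 578 ± 61.8 per kb in mimic glands and 571 ± 74.5 per kb in vehicle glands. By the longest transcript it lay within the spread of Kcnk2. By median transcript length Kcnk2 was far above Kcnk1, at 1492 against 725 per kb over all glands. The acid-sensitive TASK channels stood apart from each other, Kcnk9 at 335 ± 23.2 and Kcnk3 at 129 ± 23.2 per kb in mimic glands, against 335 ± 44.1 and 131 ± 40.0 per kb in vehicle glands.

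Inward rectifiers made up 10.7% ± 0.5 of the summed level in mimic glands and 10.4% ± 0.451 in vehicle glands (SD, n = 6 each). They include GIRK, the channel that Gi-coupled receptors for dopamine and somatostatin open through G protein βγ subunits. Kcnj3 (GIRK1) had 414 ± 62, Kcnj6 (GIRK2) 266 ± 57.2, Kcnj9 (GIRK3) 48.0 ± 9.19 and Kcnj5 (GIRK4) 14.9 ± 2.47 per kb in mimic glands. In vehicle glands the same genes had 389 ± 84.2, 236 ± 38.8, 42.7 ± 7.15 and 15.7 ± 3.09 per kb. The order was the same in both groups, and each step was larger than the SDs. Kcnj11, the pore of the ATP-sensitive channel, came next after Kcnj6 with 106 ± 12.6 per kb in mimic glands and 134 ± 27.4 per kb in vehicle glands. Kcnj8, the pore used in vascular cells, had 95.7 ± 26.9 per kb in mimic glands and 109 ± 17.4 per kb in vehicle glands, within the spread of Kcnj11. By median transcript length Kcnj11 was instead the highest inward rectifier, at 534 per kb over all glands, beside 515 for Kcnj3.

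Most subunits of the ion-activated class open on intracellular calcium or sodium, while Kcnu1, a relative of the BK pore, responds to pH and voltage. The class made up 10.9% ± 1.18 of the summed level in mimic glands and 10.3% ± 0.816 in vehicle glands (SD, n = 6 each). Kcnma1, the BK channel opened by calcium and voltage, had 385 ± 37.0 per kb in mimic glands and 379 ± 44.5 per kb in vehicle glands. Kcnn3, an SK channel opened by calcium alone, had 375 ± 46.4 per kb in mimic glands and 367 ± 36.5 per kb in vehicle glands, within the spread of Kcnma1. By median transcript length Kcnma1 was far above Kcnn3, at 1321 against 371 per kb over all glands. Its relative Kcnn2 had 206 ± 37.8 per kb in mimic glands and 182 ± 14.8 per kb in vehicle glands. Kcnt1, opened by sodium, had 150 ± 31.7 per kb in mimic glands and 145 ± 36.4 per kb in vehicle glands.

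Auxiliary subunits made up 22.4% ± 1.13 of the summed level in mimic glands and 23.0% ± 0.737 in vehicle glands (SD, n = 6 each). By the longest transcript they held the 2 highest levels of all 83 genes. By median transcript length Kcnk2 and Kcnma1 were highest instead, at 1492 and 1321 per kb over all glands. Kcnmb4, a BK beta subunit, had 816 ± 18.5 per kb in mimic glands and 836 ± 82.5 per kb in vehicle glands. Kcnip3, a calcium-binding partner of the A-type channels, had 754 ± 50.3 per kb in mimic glands and 761 ± 49.1 per kb in vehicle glands. Kcnmb2, another BK beta subunit, had 269 ± 38 per kb in mimic glands and 314 ± 70.1 per kb in vehicle glands. For 15 of the 83 genes the longest transcript was over 2 times the median one. With the median transcript length the ion-activated share over all glands was 14.4% and the auxiliary share 18.8%, so ranks of levels depend on which transcript is used.

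**Figure D1:**
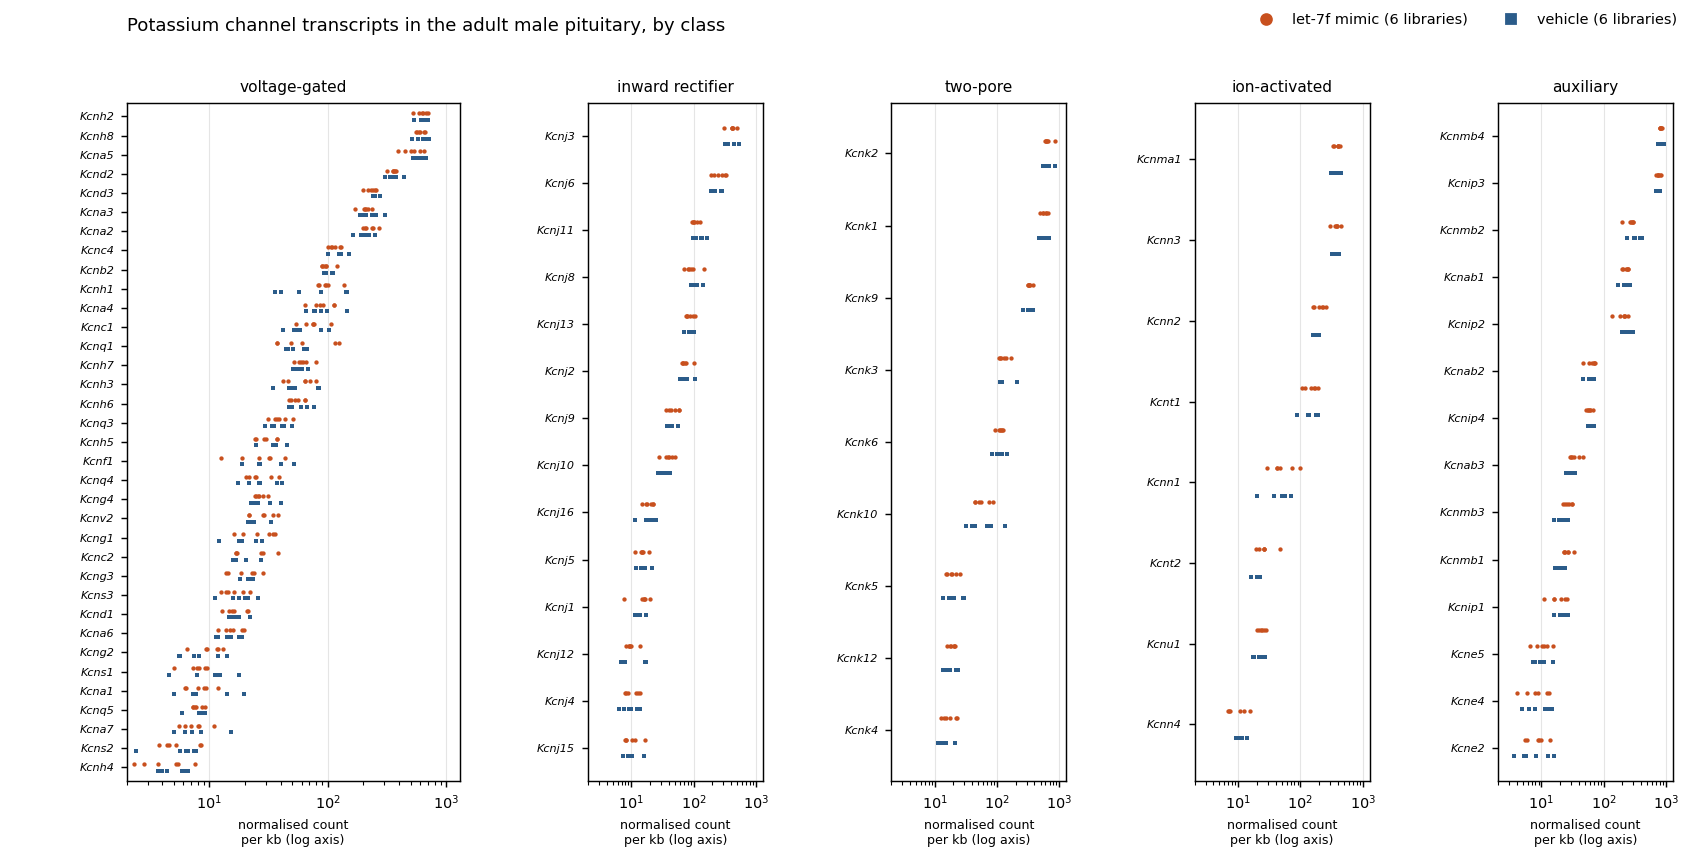
Normalised count per kb of transcript (log axis) for 80 of the 83 genes, by class, with 1 point per library, mimic glands in orange above vehicle glands in blue. The levels span Kcnmb4, Kcnip3 and Kcnk2 at the top to Kcnh4 and Kcns2 at the bottom, and the points of the 2 groups overlap for every gene drawn.

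The comparison of mimic with vehicle asks whether zygotic let-7f exposure left a difference in these genes in the adult gland. No channel gene passed the test (limma on log2(normalised count + 1), Benjamini-Hochberg adjusted over 18390 genes, threshold 0.05). Across all 18390 genes 0 were called (0%), and the smallest adjusted p among the channel genes was 0.976. An unadjusted p under 0.05 was found for 5 channel genes of 83, or 6.02%, against 879 of all genes, or 4.78%. Of the 5, 3 were higher in mimic glands (2.29% of all genes) and 2 were lower (2.49%). The count is near the share of all genes. Groups did not overlap for 0 channel genes and for 22 of all genes, or 0.12%. DESeq2, run on the reads of 10 libraries, called 0 channel genes and 3 of all genes, or 0.0163%.

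The log2 fold changes of the 83 genes ran from -0.38 for Kcns1 to 0.42 for Kcnh1. Of them 45 were above 0 (54.2%) and 38 below, while 49.8% of all genes were above 0. Their median was 0.01, beside -0.0005 for all genes. For 82 of the 83 genes the 95% interval excluded changes of 2-fold up or down (98.8%, against 93.5% of all genes), the exception being Kcnh1. Changes of 1.5-fold were outside the interval for 59 of them (71.1%, against 77.7%). By class, 15 voltage-gated genes were above 0 and 23 below, with a median of -0.03. Inward rectifiers had 9 above and 5 below (median 0.06), two-pore genes 7 and 2 (median 0.01), ion-activated genes 7 and 1 (median 0.08) and auxiliary genes 7 and 7 (median 0.001).

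**Figure D2:**
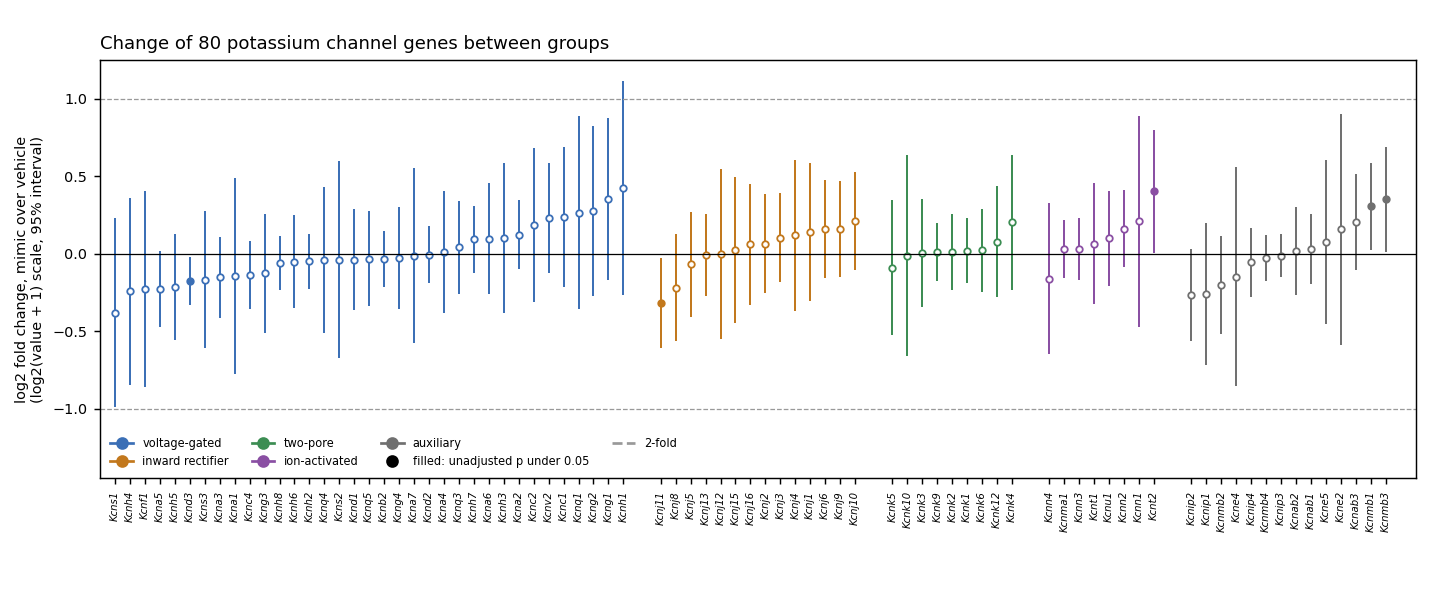
Log2 fold change of mimic over vehicle with its 95% interval for 80 of the 83 genes, ordered within each class, with dashed lines at a 2-fold change. Filled points mark the 5 genes with an unadjusted p under 0.05, and the interval of Kcnh1 is the one that crosses a dashed line.

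The 5 genes with the smallest p are given with their glands, although none passed the adjusted test (adjusted p 0.976 for each, limma). Kcnd3, an A-type pore, had a lowest, median and highest normalised count of 1423, 1696 and 1844 in mimic glands and of 1742, 1896 and 1993 in vehicle glands. All 6 mimic glands were below the vehicle mean, but the groups overlapped. The log2 fold change was -0.17 (SE 0.07, unadjusted p 0.025). Kcnj11 had 295, 319 and 403 in mimic glands and 302, 424 and 514 in vehicle glands. Again all 6 mimic glands were below the vehicle mean, while vehicle glands 2 and 5 lay among the mimic glands. Its log2 fold change was -0.32 (SE 0.13, unadjusted p 0.0313). Abcc8, the sulfonylurea receptor that pairs with Kcnj11, had a log2 fold change of -0.17 (SE 0.23, unadjusted p 0.452).

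Kcnmb1, a BK beta subunit best known from smooth muscle, had a lowest, median and highest normalised count of 95.8, 106 and 139 in mimic glands and of 69.8, 92.1 and 101 in vehicle glands. All 6 mimic glands were above the vehicle mean, mimic gland 6 furthest, and the lowest of them overlapped the vehicle range. Its log2 fold change was 0.30 (SE 0.13, unadjusted p 0.0329). The related Kcnmb3 had 38.6, 45.7 and 53.1 in mimic glands and 27.5, 35.2 and 45.3 in vehicle glands. Its 6 mimic glands were also all above the vehicle mean, with a log2 fold change of 0.35 (SE 0.15, unadjusted p 0.0394). Kcnmb4 and Kcnmb2, the BK beta subunits of higher level, had log2 fold changes of -0.03 (SE 0.07) and -0.21 (SE 0.14), and their pore Kcnma1 had 0.03 (SE 0.08).

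Kcnt2, a sodium-activated pore, had 111, 152 and 276 in mimic glands and 93.5, 120 and 131 in vehicle glands. Mimic gland 2 alone gave the value of 276 and the other mimic glands did not exceed 153. The log2 fold change was 0.40 (SE 0.18, unadjusted p 0.0439), and 0.24 without mimic gland 2. Its relative Kcnt1 had 0.06 (SE 0.18).

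**Figure D3:**
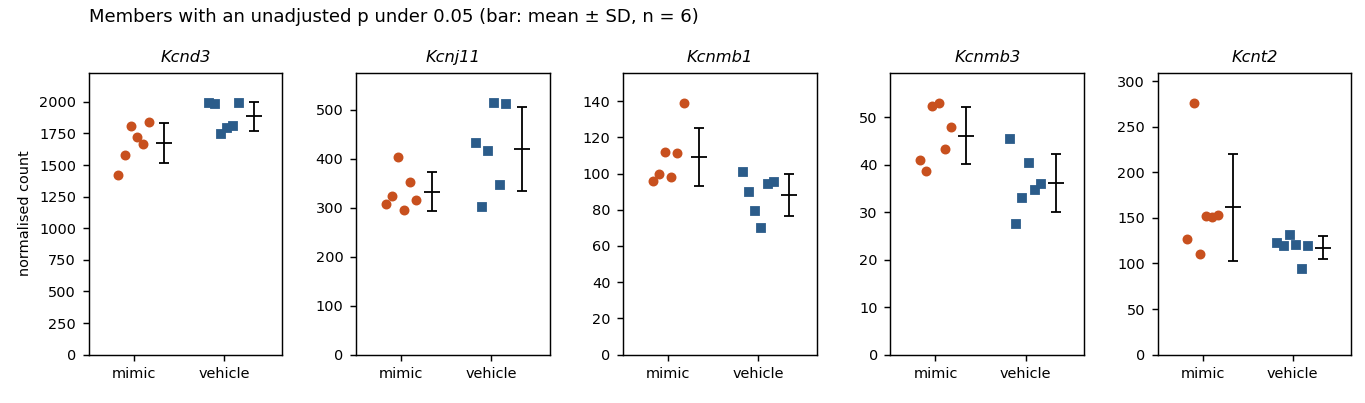
Normalised count in each gland, mimic in orange and vehicle in blue, for the 5 genes with an unadjusted p under 0.05, with the mean ± SD beside the points (n = 6). The groups overlap in every panel, and in Kcnt2 a single mimic gland stands above the rest.

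The next 5 genes by p did not pass either, and each moved by over 1.5 times when 1 library was left out. Kcna5 had a log2 fold change of -0.23 (SE 0.11, unadjusted p 0.0592), with 5 of 6 mimic glands below the vehicle mean, and -0.15 without mimic gland 4. Kcnip2, a calcium-binding partner of A-type channels, had -0.27 (SE 0.14, unadjusted p 0.0674), also with 5 of 6 below, and -0.16 without mimic gland 4. Kcng1, a silent subunit that modifies Shab channels, had 0.35 (SE 0.24), but 0.20 without vehicle gland 4 and 0.12 with edgeR on 10 libraries. Kcnj10, a glial inward rectifier, had 0.21 (SE 0.14) and 0.14 without mimic gland 4, and its partner Kcnj16 had 0.06 (SE 0.18). Kcnn2 had 0.16 (SE 0.11) and 0.09 without mimic gland 5.

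The 6 genes with a seed match had log2 fold changes on both sides of 0, 4 of them above it and 2 below. Kcnj3 had a log2 fold change of 0.10 (SE 0.13), Kcnk6, a weak leak subunit, had 0.02 (SE 0.12) and Kcnk3 had 0.005 (SE 0.16). Kcnc4, a Shaw-type pore, had -0.14 (SE 0.10). The median of the 6 was 0.01, beside 0.02 for the channel genes with no match.

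Kcnh1, the EAG channel, varied most of the 83 genes between glands. It had a lowest, median and highest normalised count of 601, 688 and 989 in mimic glands and of 259, 528 and 1045 in vehicle glands. The vehicle range enclosed the mimic range, with vehicle glands 6, 1 and 4 lowest and 3 and 5 highest. The log2 fold change was 0.42 (SE 0.32, unadjusted p 0.206), and it was 0.22 without vehicle gland 6 and 0.25 without vehicle gland 1. Other genes that varied widely were Kcnn1, an SK channel, with 119 to 403 in mimic glands and 80.5 to 287 in vehicle glands, and Kcnk10, the TREK-2 channel, with 334 to 652 in mimic glands and 240 to 988 in vehicle glands. Kcnf1, a silent subunit, had 59.8 to 210 in mimic glands and 90.6 to 250 in vehicle glands. The auxiliary subunits Kcne2 and Kcne4 were low, at no more than 39.2 in any gland. Kcnq1, with 112 to 374 in mimic glands and 133 to 203 in vehicle glands, shares its locus with the antisense RNA Kcnq1ot1, and whether strand was used in counting is not given in the sources used here, so its level is uncertain.

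Each gene was correlated over the 12 glands with the mean log2 level of markers for the posterior lobe, melanotrophs, pericytes with smooth muscle, and endothelium. That made 73560 relations over all genes, and p-values from 100000 permutations were Benjamini-Hochberg adjusted over them. These relations were chosen after the values were seen, so they describe these glands. With the posterior lobe markers 1 channel gene passed (1.20%, against 1.29% of all genes), with the melanotroph markers 2 (2.41%, against 1.4%), with the endothelial markers 1 (1.20%, against 0.5%) and with the pericyte markers 0 (against 0.169%).

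Kcnh1 followed the posterior lobe markers with r = 0.979 (permutation p 1e-05, the smallest these permutations can give) and rho = 0.937 (permutation p 7e-05), adjusted p 0.00629 for r. Without vehicle glands 1 and 6, the farthest from the median, r was 0.941 (permutation p 0.00013), and within groups it was 0.935 in mimic glands and 0.989 in vehicle glands. Its r with the melanotroph markers was 0.938 (permutation p 9e-05, rho 0.874 with permutation p 0.0004), with an adjusted p of 0.0214 for r, while by rank it did not pass (adjusted p 0.0739). Without the same 2 glands r was 0.804 (permutation p 0.00605). Both marker lists were lowest in vehicle glands 6, 1 and 4, so these are not 2 separate relations. In a fit that took the posterior lobe level as a covariate, the log2 fold change of Kcnh1 turned to -0.06. As Kcnh1 followed that level so closely, this shift follows from the relation above and is no separate test. Kcnc1, a fast Shaw-type pore, followed the melanotroph markers with r = 0.858 (permutation p 0.00018) and rho = 0.902 (permutation p 7e-05), adjusted p 0.0315 for r. Without vehicle glands 1 and 6, r was 0.870 (permutation p 0.00083). Kcnc1 had 416 to 833 in mimic glands and 326 to 790 in vehicle glands, and a log2 fold change of 0.24 (SE 0.21), which was 0.04 with the posterior lobe covariate and 0.12 without vehicle gland 1.

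Kcnk9 ran against the endothelial markers with r = -0.895 (permutation p 0.00029) and rho = -0.790 (permutation p 0.0033), adjusted p 0.0417 for r. Without vehicle glands 1 and 3, r was -0.712 (permutation p 0.0184), and by rank the relation did not pass the adjustment (adjusted p 0.188). Its r was also negative with the posterior lobe (-0.801, adjusted p 0.0802), pericyte (-0.775, adjusted p 0.152) and melanotroph markers (-0.579, adjusted p 0.457). By rank the posterior lobe relation was the stronger, with rho = -0.874 (permutation p 0.00033). The relation was thus not particular to the endothelial list. Kcnj11, among the 5 genes above, had r = -0.757 with the melanotroph markers (adjusted p 0.165), and its log2 fold change was -0.21 (unadjusted p 0.119) with the posterior lobe covariate. Kcnd3 had -0.14 (unadjusted p 0.0762) in that limma fit. The rest of the 5 genes were not reduced by it. Kcnmb1 had 0.33 (unadjusted p 0.036), Kcnmb3 0.42 (unadjusted p 0.0244) and Kcnt2 0.41 (unadjusted p 0.0623). The part of these markers in the differences between groups was not tested.

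**Figure D4:**
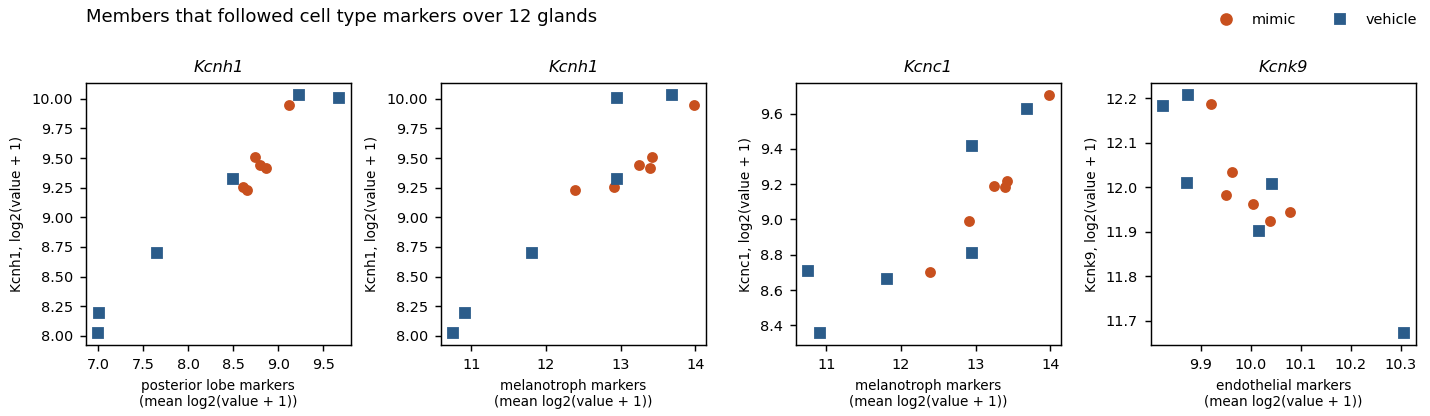
Log2(normalised count + 1) of Kcnh1, Kcnc1 and Kcnk9 against the mean log2 level of the marker list they followed, 1 point per gland, mimic in orange and vehicle in blue. For Kcnh1 the mimic glands sit along the upper part of a line that the vehicle glands span, and for Kcnk9 a single vehicle gland lies far right and low.

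Genes that work with the channels were counted the same way, beside the 4.78% of all genes with an unadjusted p under 0.05 (2.29% higher and 2.49% lower). Of 24 channel partners measured, such as the sulfonylurea receptors and the Dpp proteins of A-type channels, 0 had an unadjusted p under 0.05, with 16 above 0, 8 below and a median of 0.04. A list of 24 genes is too short for that count to be told from the share of all genes. Of 28 genes for other conductances, Scn2a, a sodium channel pore, was the 1 higher (log2 fold change 0.62, SE 0.21, unadjusted p 0.0117) and Trpc6, a cation channel, the 1 lower (-0.30, SE 0.11, unadjusted p 0.0211). Of 22 receptors, G proteins and pores of the GIRK pathway, 3 were higher at that level and 2 lower. Rgs7, which speeds G protein deactivation, had 0.28 (SE 0.08, unadjusted p 0.00409), the somatostatin receptors Sstr2 and Sstr1 had 0.48 (SE 0.17) and 0.97 (SE 0.43), Gnb2, a G protein beta subunit, had -0.19 (SE 0.07) and Sstr3 had -0.32 (SE 0.11). All had an adjusted p of 0.976 (limma), and the 4 GIRK pores were not among them. With the posterior lobe level as a covariate (limma), Scn2a had 0.35 (unadjusted p 0.0307) and Sstr3 had -0.21 (unadjusted p 0.044). Sstr1 had 0.45 (unadjusted p 0.161), Rgs7 0.30 (unadjusted p 0.00619) and Sstr2 0.49 (unadjusted p 0.0227) in that fit. Gnb2 had -0.20 (unadjusted p 0.0174) there and Trpc6 -0.29 (unadjusted p 0.0388). That fit called 0 genes.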

How the data were processed

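The deposited values are normalised counts per gene, a signal the authors label as normalised counts; the scaling step is not given in the sources used here. Trimmomatic 0.39, kallisto 0.50.1, DESeq2 1.48.2, FastQC 0.12.1, MultiQC 1.28 and the build GRCm39 are named in the submitters' processing notes, with no role or order. Libraries were stranded and rRNA-depleted, per the labels' protocols. A row with no gene name (0.0359% to 0.0567% of the values) was left out.

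The channel genes, gene lists and tests were chosen with earlier results of these data known. The marker correlations were chosen after values had been seen, and the posterior lobe and melanotroph lists were then shortened to 9 and 5 genes; the longer lists were run as an alternative.

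The 18390 genes reaching 10 in 6 or more libraries were tested with limma 3.58.1 (R 4.3.3), trend fitted, on log2(value + 1), two-sided. Fold changes on that scale understate low genes. In 10 libraries all values were whole multiples, within 0.001, of 1 step, as whole counts divided by a size factor would be, and these were read as counts; how kallisto's estimated counts became whole is not given in the sources used here. The other 2, mimic 3 and 5, had a step too close to 1 to tell from rounding, so edgeR 4.0.16 and DESeq2 1.42.0 were run as alternatives on the 10 (4 mimic and 6 vehicle). The closest 2 of those 10 had a chi-square over its degrees of freedom of 21.9, and none was taken for a copy of another. Other alternatives were the pseudocount, filter, scaling, library weights, replicate block, a posterior lobe covariate, transcript length and leaving out each library. The fits were also run on simulated data in which each gene was drawn independently. Shared differences between glands, such as those of the lobe markers, were not simulated.

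Transcript lengths came from GENCODE M21 (GRCm38) by symbol for all 83 genes, Kcne5 by its older symbol. Of the 83, 3 enter every count and sum but are not reported here one by one or drawn. Named genes were the 4 of highest level per class, the 10 of smallest p, the 6 of largest SD, known pituitary channels, the genes nearest the level threshold and those with a seed match; Kcns1, Kcnt1, Kcnq1 and a few relatives were named after their values were seen.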

Additional observations from a re-analysis of the deposited data

Results flagged for a closer look

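In 16 of 166 groups of 6 glands, 1 gland lay far from the other 5 by its gap over the group's range. For independent and normally distributed values, chance flags about 1 in 20 groups, or 8.3 here. These groups share glands and need not be normally distributed, so 8.3 is a rough guide and no test of the 16. All values are normalised counts. Mimic gland 2 was high for Kcnb2 (1787, others 1322 to 1441), Kcnj2 (560.3, others 356 to 413.9), Kcnj12 (34.1, others 20.52 to 23.95) and Kcnt2 (276.2, others 110.8 to 152.9). Mimic gland 4 was high for Kcnh1 (988.9, others 601.2 to 728.1) and low for Kcnmb2 (570.1, others 776.3 to 873.1). Mimic gland 1 was high for Kcnj8 (375.4, others 180.6 to 248.7), gland 3 for Kcnk2 (3095, others 2146 to 2329) and gland 6 for Kcnmb1 (139.1, others 95.78 to 111.8). Vehicle gland 4 was high for Kcna7 (33.06, others 11.01 to 18.5), Kcnj15 (90.6, others 41.56 to 58.27), Kcnk3 (810.5, others 421.2 to 451.1) and Kcnv2 (170.2, others 107.3 to 122.1). Vehicle gland 2 was high for Kcnj9 (217.4, others 144.3 to 171.4). Vehicle gland 3 was low for Kcnq5 (40.72, others 57.14 to 64.23) and vehicle gland 5 for Kcnt2 (93.5, others 118.7 to 130.9).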

How the results depend on the processing

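No channel gene was called under any alternative. The 10 genes of smallest p kept their direction in all 24 or 25 of theirs. Those genes were picked by p in the same libraries that the alternatives refit, so a kept direction is not separate support. DESeq2 on 10 libraries called 3 of all genes, 656 being under an unadjusted p of 0.05, while edgeR called 0, with 607. Channel genes at that p numbered 3 with quantile normalisation (863 of all genes), 3 with edgeR and 3 with limma on those 10 libraries (598 of all genes with limma), and 2 with the posterior lobe covariate from either list (759 and 762 of all genes). Leaving out each library gave 1 (without mimic 6 or vehicle 6, with 686 and 737 of all genes) to 7 (without mimic 1, with 1190) of them. It gave 0 to 1 channel genes whose groups did not overlap (1 without vehicle 1, with 53 of all genes), while 40 to 95 of all genes did not overlap over these fits. With the replicate block 4 channel genes and 837 of all genes were at that p, and 0 were called; same-numbered glands correlated by -0.149 to 0.0860, so the numbers were not taken as pairs. The median of the channel genes ran from 0.004 to 0.03 without each library, and was -0.02 with edgeR. By median transcript length the ion-activated share was 14.37% and the auxiliary share 18.79%. Without the 2 farthest libraries 0 channel genes passed with the posterior lobe markers, fewer libraries entering that test; with the longer lists (14 and 7 genes measured) Kcnh1 had r = 0.984 and 0.940 and Kcnc1 0.845, and the same genes passed. Kcnh1 turned to -0.06245 with the covariate and -0.0339 with its longer list. Kcnk6 turned to -0.03978 and -0.03974 with those, -0.01671 with edgeR, -0.01644 with DESeq2 and -0.005757 with limma on the 10. Kcnk9 turned to -0.05457, -0.0542 and -0.04342 with those 3 fits. Without each library, Kcnk3 ran from -0.07711 to 0.1526, Kcnk6 from -0.06354 to 0.09434 and Kcnk9 from -0.05606 to 0.05097. The cause of these shifts was not tested.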
